A study of Mus musculus with 4 samples.

Results

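The T-box genes described here are *Tbx18*, *Tbx1*, *Tbx2*, *Tbx3*, *Tbx4*, *Tbx5*, *Tbx6*, *Tbx15* and *Tbx20*, 9 of the 34682 genes counted in developing mouse ovaries. They were chosen by name, as members of the T-box family, and *Tbx18* leads the set because of its difference between mutant and wild-type ovaries in these same libraries. The values of that difference are therefore given as a description, without a test. Bulk RNA-seq was performed on ovaries of embryos at E13.5, with 2 mutant libraries, which overexpress *Sall1*, and 2 wild-type libraries, each numbered replicate 1 and 2. The mutants carry a BAC, a large genomic insert, in which the *Sall1* coding sequence replaces *Wt1* and is driven by the *Wt1* regulatory elements, which act in gonadal somatic cells. The transgene was inserted with the PiggyBac transposase in female embryonic stem cells, and the mice came from aggregating such cells with morulae. The wild-type libraries carry no treatment. The study describes the controls in the text as littermates and in the methods as CD1, whereas their column names contain B6. For the stem cells behind the mutants, the methods name a B6 strain or a hybrid of it with another strain, not CD1. The mutant column names contain N2, which is not explained. If the controls were B6, the named strains would match in full or in part. If the controls were CD1, the strains would differ. Strain may therefore differ between the genotypes, and its part in the differences was not tested. Nothing in the labels says whether each library came from 1 embryo or from several, so the spread between libraries may be partly technical.

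Total counts ranged from 11036313 to 14893508 in the mutant and from 17214470 to 17869840 in the wild-type libraries. *Sall1* itself was counted 1243 and 1445 times in the mutant against 279 and 223 times in wild type. *Wt1* had a log2 fold change of 0.032 (standard error 0.102). Levels are given as CPM, counts scaled to the library size with TMM factors. Presence required more than 3 counts, a floor that corresponds to 0.272, 0.199, 0.174 and 0.17 CPM in mutant replicates 1 and 2 and wild-type replicates 1 and 2. Intervals and floors cover counting error only. Of the defining ovarian markers, *Foxl2* of pre-granulosa cells had 481 to 664 counts and *Ddx4* of germ cells 3981 to 6182.

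T-box factors are transcription factors that share a DNA-binding domain first recognized in Brachyury, the product of the gene *T*. They bind a short half-site, AGGTGT, and act as activators or repressors in the patterning of mesoderm, limbs, heart and the urogenital system. *Tbx18* is known for its role in the mesenchyme around the ureter, which becomes smooth muscle, and its closest relative among these genes is *Tbx15*. *Tbx2* and *Tbx3* encode repressors that also act in the ureteric mesenchyme, and the genes lie in the conserved gene pairs *Tbx2* with *Tbx4* and *Tbx3* with *Tbx5*.

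*Tbx18* spans bases 87597635 to 87626095 of chromosome 9 in NCBIM37 (mm9), on the minus strand, with 8 exon blocks in the GENCODE M1 annotation. *Tbx6* lies on the plus strand of chromosome 7, from 133924997 to 133929074. The 250 bases before the annotated start of these 2 genes are shown because they are the members with enough counts for the fit whose mutant libraries both lay above both wild-type libraries. The windows are RefSeq sequences from a table on GRCm38.p6, which held windows for 5 of the 9 members, and each was found once in NCBIM37, at chr9:87626096-87626345 and chr7:133924747-133924996. Capitals mark matches on either strand to any of 4 short motifs, the T-box half-site AGGTGT, the AT-rich motif ATATT bound by zinc fingers of the SALL family, the GC box GGGCGG and the TATA box TATAAA.
Tbx18: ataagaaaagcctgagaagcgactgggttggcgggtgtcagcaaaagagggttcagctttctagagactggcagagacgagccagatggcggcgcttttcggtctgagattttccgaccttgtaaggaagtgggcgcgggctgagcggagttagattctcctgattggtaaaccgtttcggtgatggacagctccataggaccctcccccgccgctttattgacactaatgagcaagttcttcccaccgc
Tbx6: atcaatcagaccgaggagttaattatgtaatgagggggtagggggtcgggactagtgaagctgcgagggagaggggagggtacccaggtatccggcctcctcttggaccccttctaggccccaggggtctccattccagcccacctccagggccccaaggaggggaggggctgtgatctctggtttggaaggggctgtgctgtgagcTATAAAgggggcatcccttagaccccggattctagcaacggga
The *Tbx18* window held 0 matches to the 4 motifs, and its GC content was 54%. The *Tbx6* window held 1 TATA box, beginning 43 bases before the start, and its GC content was 59.6%. Of 32841 windows of the same length from all genes, 11.8% held the half-site, 23.4% the AT-rich motif, 32.7% the GC box and 12.4% the TATA box, and the median GC content was 52.4%.

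Most reads of the T-box members came from *Tbx2* and *Tbx4*, which together gave 81.4% and 86.1% of the counts of the 9 members in the mutant and 82.5% and 86.1% in wild type. The summed level of the 9 members was 88.2 and 78.2 CPM in the mutant and 93.5 and 91.4 CPM in the wild-type libraries. More than 3 counts in every library were found for 5 members, *Tbx1*, *Tbx2*, *Tbx3*, *Tbx4* and *Tbx6*. Just inside this floor, the lowest count of *Tbx6* was 6. Just outside it, *Tbx20* had a lowest count of 3, *Tbx18* of 2, *Tbx15* of 1 and *Tbx5* of 0.
Levels were ordered between genes as CPM per kilobase of annotated exon. In wild-type ovaries *Tbx2* stood highest, at 14.5 ± 0.203 CPM per kilobase (SD, n = 2), followed by *Tbx4* at 7.49 ± 0.546 (SD, n = 2). *Tbx1* at 1.58 ± 0.0732 and *Tbx3* at 1.56 ± 0.00223 (SD, n = 2) had overlapping ranges. *Tbx15*, *Tbx6*, *Tbx20* and *Tbx18* had means between 0.155 and 0.318 CPM per kilobase, and each overlapped with its neighbour in the order. *Tbx5* was last. In the mutant ovaries *Tbx2*, *Tbx4*, *Tbx1* and *Tbx3* came in the same order, and *Tbx18* was 6th, at 0.578 ± 0.335 (SD, n = 2), where it had been 8th in wild type. Its range overlapped with that of *Tbx6*, the member just above it.

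**Figure D1:**
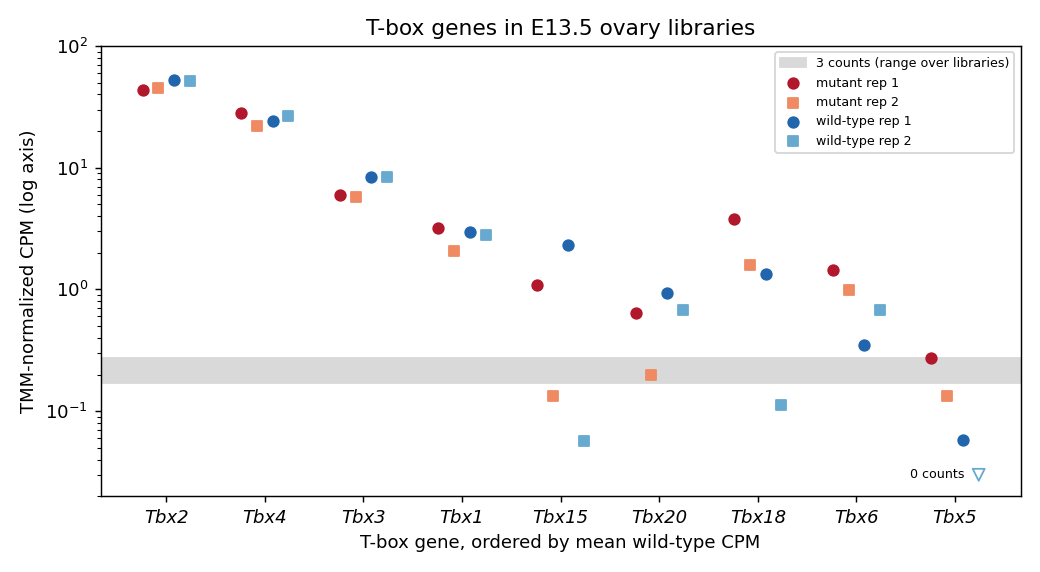
TMM-normalized CPM (log axis) of the 9 T-box genes in each of the 4 libraries, ordered by mean wild-type level, with the grey band at the level of 3 counts. *Tbx2* and *Tbx4* lie above 20 CPM in every library, whereas *Tbx18*, *Tbx15* and *Tbx5* reach down to 0.113, 0.0567 and 0 CPM in wild-type replicate 2.

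*Tbx18* was counted 42 and 24 times in the mutant against 23 and 2 times in wild type, that is at 3.81 and 1.60 CPM against 1.34 and 0.113 CPM. Both mutant libraries were higher than both wild-type libraries, but only narrowly: the exact Poisson 95% interval of mutant replicate 2, 1.02 to 2.37 CPM, overlapped with that of wild-type replicate 1, 0.847 to 2.01 CPM. The means came to 2.70 ± 1.57 CPM in the mutant against 0.725 ± 0.865 CPM in wild type (SD, n = 2 each), and the edgeR fit gave a log2 fold change of 1.87 with a standard error (SE) of 0.89. In bulk tissue, more cells of a type and more RNA per cell cannot be told apart. The size of the estimate depended on which wild-type library was kept. The log2 fold change rose to 4.45 without wild-type replicate 1. It fell to 1.00 without wild-type replicate 2, the library with 2 counts. Set side by side within the replicate numbers, the ratio of mutant to wild type was 2.85 (exact 95% interval 1.68 to 4.97) in replicate 1 and 14.1 (3.49 to 123) in replicate 2, from libraries whose column names carry adjacent library numbers but for which no shared litter or batch is stated.
The level of *Tbx18* also differed between the replicates of one genotype. Replicate 1 stood above replicate 2 by 2.39 times in the mutant (exact 95% interval 1.41 to 4.12) and by 11.8 times in the wild-type libraries (2.91 to 103). *Tbx15*, a gene of limb, skin and skeletal muscle development, was counted 12 and 2 times in the mutant and 40 and 1 times in the wild-type libraries. The highest and the lowest library were thus both wild type. Replicate 1 stood above replicate 2 by 8.19 times in the mutant (1.82 to 75.3) and 41.0 times in the wild-type libraries (6.95 to 1660), and the log2 fold change of *Tbx15* between the genotypes, -1.05 (SE 1.34), became 3.16 without wild-type replicate 1.
*Tbx18* and *Tbx15* were the 2 members, of 8 that passed the low-count filter, with replicate 1 more than 2-fold above replicate 2 in both genotypes, a limit set after the values had been seen. Among the 15442 genes that passed the filter 226 met it, or 1.46%. The reverse limit, replicate 2 above replicate 1, was met by 70 genes, or 0.453%. Skeletal muscle genes divided the libraries in a like way. Of 16 listed muscle genes, 11 passed the filter and 8 of these met the same limit. Both replicate 1 libraries lay above both replicate 2 libraries for all 11 tested muscle genes, against 23.5% of all genes tested. Of the 8 tested members 2 met this other condition, *Tbx1* and *Tbx15*, and *Tbx18* did not, since mutant replicate 2 lay above wild-type replicate 1. The muscle list was chosen with earlier results of these data known, and the replicate order was compared after the values had been seen. No enrichment is therefore read from these counts. *Myh3*, an embryonic myosin heavy chain, had 58 and 21 mutant counts against 1577 and 24 wild-type counts. *Actc1*, a sarcomeric actin, had 142 and 15 mutant counts against 1055 and 49 wild-type counts. *Myog*, a regulator of muscle differentiation, had 57 and 16 mutant counts against 129 and 22 wild-type counts. These are the libraries in which *Tbx15* was high, and *Tbx15* and all 3 muscle genes were highest in wild-type replicate 1, whereas *Tbx18* was highest in mutant replicate 1. The summed level of the muscle list was 143 and 88.9 CPM in the mutant and 355 and 92.8 CPM in the wild-type libraries, with 1 gene, *Myh8*, at 0 counts throughout. *Tnni1* alone gave 71 and 65.1 CPM of this in the mutant and 65.9 and 63.4 CPM in wild type. Of the limb and body wall mesenchyme list, 13 of 20 genes passed the filter and 1, *Pax1*, met the limit. The summed level of that list was 162 and 124 CPM in the mutant and 148 and 148 CPM in the wild-type libraries. *Meis1* alone gave 74.1 and 62.5 CPM of this in the mutant and 61.3 and 71.2 CPM in wild type. The part of tissue adjoining the gonad in the levels of *Tbx18* and *Tbx15* was not tested.

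**Figure D2:**
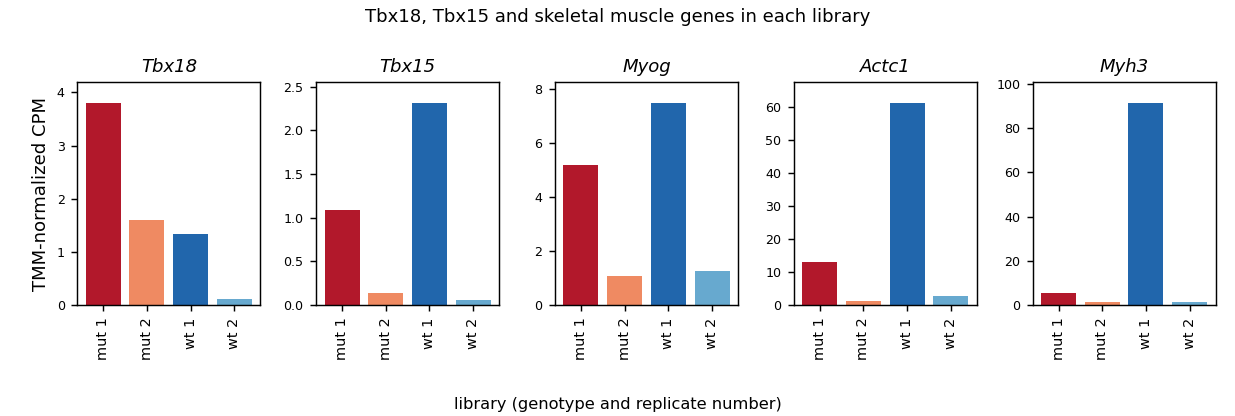
TMM-normalized CPM (linear axes from 0, 1 scale per gene) of *Tbx18*, *Tbx15* and the muscle genes *Myog*, *Actc1* and *Myh3*, with 1 bar per library. The genes are higher in replicate 1 than in replicate 2 of each genotype, and wild-type replicate 1 holds the highest bar for *Tbx15*, *Myog*, *Actc1* and *Myh3* but not for *Tbx18*.

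The repressor genes *Tbx2* and *Tbx3* varied little between the libraries of one genotype. *Tbx2* had 43.5 and 45.5 CPM in the mutant and 52.9 and 51.9 CPM in the wild-type libraries, from 479 to 916 counts. *Tbx3* had 5.99 and 5.78 CPM in the mutant and 8.37 and 8.39 CPM in the wild-type libraries, from 66 to 148 counts. For both genes the 2 mutant libraries lay below the 2 wild-type libraries. The log2 fold change was -0.24 (SE 0.11) for *Tbx2* and -0.51 (SE 0.21) for *Tbx3*, and leaving out each library in turn gave -0.21 to -0.27 and -0.49 to -0.54. Within the replicate numbers the ratio of mutant to wild type was 0.821 and 0.876 for *Tbx2* and 0.716 and 0.690 for *Tbx3*. All 4 exact intervals lay below 1, but they cover counting error only and are no test of the genotypes.
Their neighbours in the gene pairs did not share this division. *Tbx4*, a gene of hindlimb and lung development that begins 44473 bases beyond the end of *Tbx2* on chromosome 11, had 28.3 and 21.9 CPM in the mutant and 24.2 and 26.8 CPM in the wild-type libraries, and the groups overlapped. Its log2 fold change of -0.028 (SE 0.16) lay between -0.22 and 0.15 when each library was left out. The ratio of mutant to wild type for *Tbx4* was 1.17 (exact 95% interval 1.01 to 1.36) in replicate 1. In replicate 2 it was 0.816 (0.707 to 0.941), so the counting intervals excluded 1 in opposite directions. *Tbx5*, a gene of forelimb and heart development 149938 bases from *Tbx3* on chromosome 5, had 3 and 2 mutant counts against 1 and 0 wild-type counts. It was at or under the floor in all 4 and did not pass the low-count filter.
*Tbx6*, a regulator of presomitic mesoderm, had 16 and 15 mutant counts against 6 and 12 wild-type counts, or 1.45 and 0.997 CPM against 0.349 and 0.68 CPM. The mutant libraries were higher, with a log2 fold change of 1.22 (SE 0.54). Its ratio of mutant to wild type was 4.16 (exact 95% interval 1.55 to 13.0) in replicate 1 and 1.47 (0.641 to 3.43) in replicate 2. *Tbx6* lies 346 bases from *Ppp4c*, with 1229 to 1914 counts, and 968 bases from *Ypel3*, with 246 to 432 counts. The log2 fold changes of these neighbours were 0.007 (SE 0.091) and -0.052 (SE 0.129). Whether their reads add to the count of *Tbx6* was not tested. *Tbx20*, a gene of heart development, had 7 and 3 mutant counts against 16 and 12 wild-type counts. All its mutant values were lower, with a log2 fold change of -1.01 (SE 0.66) that lay between -0.34 and -1.97 when each library was left out. *Tbx1*, a gene of pharyngeal development, had 3.18 and 2.06 CPM in the mutant and 2.96 and 2.78 CPM in the wild-type libraries, and the groups overlapped.

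**Figure D3:**
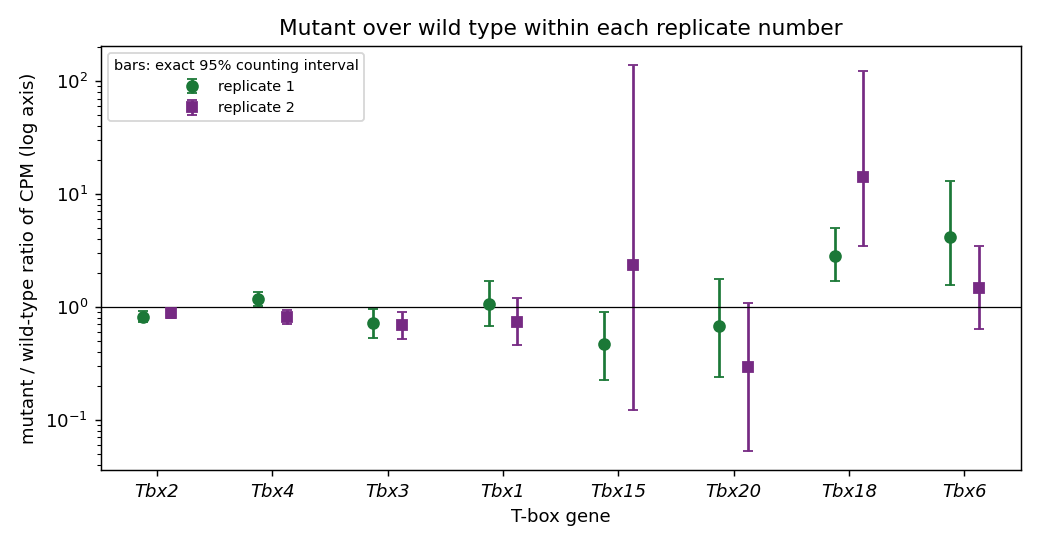
Ratio of mutant to wild-type CPM (log axis) for the 8 T-box genes that passed the low-count filter, within replicate 1 (circles) and replicate 2 (squares), with exact 95% counting intervals. Both intervals lie above 1 for *Tbx18* and below 1 for *Tbx2* and *Tbx3*, while *Tbx15*, *Tbx4* and *Tbx1* fall on opposite sides of 1 in the 2 replicates. The intervals cover counting error only, and those of *Tbx4* exclude 1 in opposite directions.

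Across all 15442 genes tested, edgeR's quasi-likelihood test called 9 genes at an adjusted p under 0.05, or 0.0583%, of which 2 were higher (0.013%) and 7 lower (0.0453%) in the mutant, and 0 of the 8 members that passed the filter. At an unadjusted p under 0.05 it called 878 genes, or 5.69%, and 1 member, and DESeq2 called 105 genes, or 0.714% of those it adjusted, and 0 members. With the replicate number as a block, edgeR called 385 genes, or 2.49%, and 1 member. The mutant and wild-type libraries did not overlap for 5 of the 8 members, against 30.9% of all genes tested, with the mutant higher for *Tbx18* and *Tbx6* and lower for *Tbx2*, *Tbx3* and *Tbx20*. *Tbx18* leads the set because of this contrast, and the members were chosen with earlier results of these data known. These counts are therefore no test of the members, and nothing is read from them. The median log2 fold change of the 8 members was -0.19, and that of all genes tested was -0.00088.

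The remaining 8 family genes were not part of the set. *Mga*, whose product joins a T-box to a MAX-binding domain and represses germ cell genes, was counted 1578 and 2039 times in the mutant and 1967 and 2167 times in wild type. Its level averaged 139 ± 5.41 CPM in the mutant against 119 ± 5.99 CPM in wild type (SD, n = 2 each), a log2 fold change of 0.23 (SE 0.09) that did not pass edgeR's quasi-likelihood test (adjusted p = 0.849). *T* had 8 and 7 mutant counts against 21 and 25 wild-type counts, a log2 fold change of -1.16 (SE 0.48) that did not pass either (edgeR adjusted p = 0.857). *Eomes* had between 2 and 14 counts and *Tbr1* between 1 and 4. *Tbx10*, *Tbx19*, *Tbx21* and *Tbx22* had at most 1 count in any library, and these 6 genes did not pass the filter.

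T-box factors act with co-repressors of the Groucho family, with histone deacetylases and with other transcription factors. Of 15 such genes, 11 were tested in edgeR and 15 had a p-value in DESeq2, and 0 were called by either. Over all genes DESeq2 gave an adjusted p to 14709, and a gene with only an unadjusted p could not be called. In edgeR 2 had an unadjusted p under 0.05, against 5.69% of all genes tested, and the median log2 fold change was 0.021. The 2 were the Groucho genes *Tle2* and *Tle6*, with log2 fold changes of 0.33 (SE 0.10, edgeR adjusted p = 0.602) and 0.32 (SE 0.11, edgeR adjusted p = 0.732). The histone deacetylase gene *Hdac1* had a log2 fold change of -0.095 (SE 0.087). *Tle3*, *Tle4* and *Aes* had log2 fold changes between -0.058 and 0.021. The Ripply adaptor genes *Ripply1* and *Ripply2* had at most 3 counts, and *Nkx2-5*, a heart partner of several T-box factors, had at most 2.
Of 22 genes known to be regulated by T-box factors, 15 were tested in edgeR, *Tbx6* among them. The median log2 fold change was -0.056. The edgeR test called 0, against 0.0583% of all genes tested, and 1 had an unadjusted p under 0.05, against 5.69%. That gene was *Cdkn1c*, a cell cycle inhibitor. It averaged 224 ± 23.7 CPM in the mutant against 306 ± 5.27 CPM in wild type (SD, n = 2 each), a log2 fold change of -0.45 (SE 0.10, edgeR adjusted p = 0.347) that passed in DESeq2 (adjusted p = 0.0285). *Gja5*, a connexin gene of heart and vessels, had a log2 fold change of -0.91 (SE 0.38, edgeR adjusted p = 0.88), and *Shisa2*, a Wnt and FGF antagonist, one of -0.24 (SE 0.10, edgeR adjusted p = 0.899). *Cdkn1a* and *Cdkn2a*, cell cycle inhibitors repressed by *Tbx2* and *Tbx3* in other tissues, had log2 fold changes of 0.049 and -0.19 with standard errors of 0.27 and 0.41. *Msgn1*, a target of *Tbx6*, had 0 counts in every library.

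The mesenchyme of the ureter and mesonephros, where *Tbx18* acts, was represented by 32 genes. Of these, edgeR tested 30 and called 0, with 8 at an unadjusted p under 0.05. DESeq2 gave a p-value to 32 and called 3, all lower in the mutant. Over all genes the shares were 0.0583% called by edgeR, 5.69% at its unadjusted p and 0.714% called by DESeq2. The list was chosen with earlier results of these data known, so no enrichment is read from its counts. The median log2 fold change was -0.032, and the summed level was 2880 and 2580 CPM in the mutant and 2930 and 2990 CPM in the wild-type libraries. *Ctnnb1* alone gave 1340 and 1240 CPM of this in the mutant and 1220 and 1300 CPM in wild type. The 3 genes called by DESeq2 were *Tcf21*, a transcription factor of kidney and gonad mesenchyme, *Aldh1a2*, an enzyme of retinoic acid synthesis, and *Pdgfra*, a growth factor receptor of stromal cells. *Tcf21* averaged 25.6 ± 3.37 CPM in the mutant against 54.7 ± 4.19 CPM in wild type (SD, n = 2 each), a log2 fold change of -1.10 (adjusted p = 0.0811 in edgeR and 2.71e-06 in DESeq2). *Aldh1a2* had 69.7 ± 12.9 CPM (SD, n = 2) against 142 ± 6.1 CPM (SD, n = 2), with a log2 fold change of -1.02 (adjusted p = 0.106 in edgeR and 3.06e-08 in DESeq2). *Pdgfra* had 153 ± 20.8 CPM (SD, n = 2) against 225 ± 10.8 CPM (SD, n = 2), with a log2 fold change of -0.55 (adjusted p = 0.301 in edgeR and 0.00679 in DESeq2).
*Bmp4*, the signal that drives ureteric smooth muscle, averaged 9.74 ± 2.1 CPM in the mutant against 4.87 ± 0.399 CPM in wild type (SD, n = 2 each), and its log2 fold change of 1.00 passed in neither test (adjusted p = 0.428 in edgeR and 0.417 in DESeq2) but did so in edgeR with the replicate block (adjusted p = 0.0198). *Osr2*, a kidney mesenchyme factor, had a log2 fold change of 1.11 (adjusted p = 0.522 in edgeR, 0.83 in DESeq2 and 0.0445 with the replicate block). With that block 8 genes of the list passed, against 2.49% of all genes tested. Of these, 2 were higher (*Bmp4* and *Osr2*) and 6 lower in the mutant (*Tcf21*, *Aldh1a2*, *Pdgfra*, *Gli2*, *Wnt5a* and *Acta2*). The block takes same-numbered libraries as pairs, which no label states, and with 4 libraries it leaves little to estimate the spread from. *Foxd1* and *Cnn1* did not pass the filter. The epithelial genes of the mesonephric tubules and duct summed to 108 and 119 CPM in the mutant and 94.7 and 106 CPM in the wild-type libraries. *Epcam* alone gave 59.4 and 58.8 CPM of this in the mutant and 47 and 56.1 CPM in wild type. Of the 12 genes of this list 9 were tested in edgeR and 12 had a p-value in DESeq2, and both called 0. In edgeR 1 gene of the list had an unadjusted p under 0.05, against 5.69% of all genes tested. This was *Pax8*, a transcription factor of kidney tubules, with a log2 fold change of 0.80 (SE 0.19, edgeR adjusted p = 0.372), which passed with the replicate block (adjusted p = 0.0198). The receptor gene *Ret* and the epithelial gene *Epcam* followed, with log2 fold changes of -0.51 (SE 0.25) and 0.20 (SE 0.12), and *Sim1* and *Wnt9b* had between 0 and 7 counts.

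**Figure D4:**
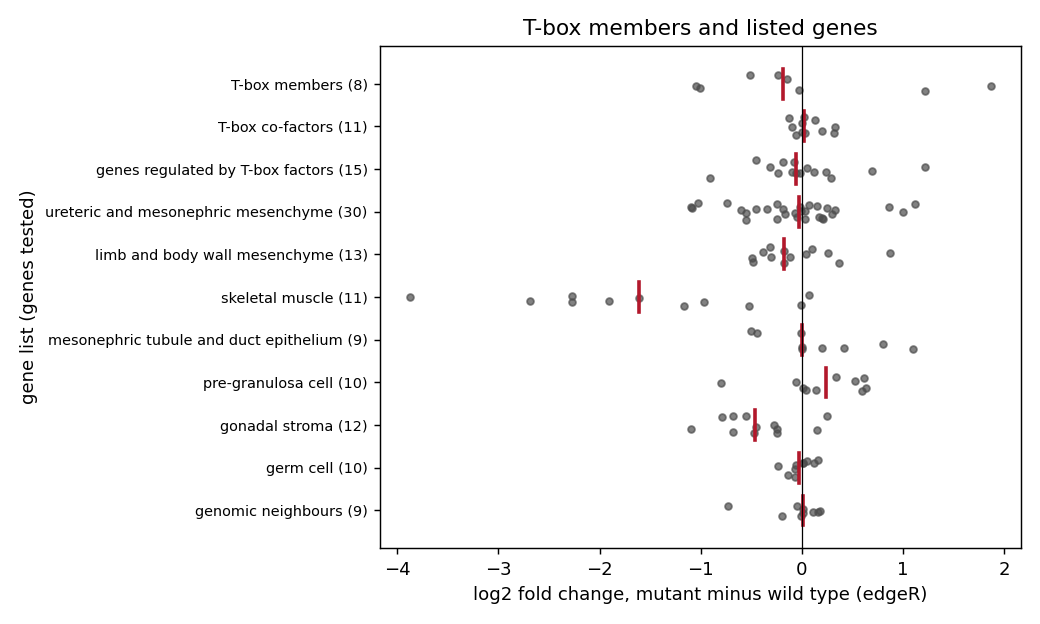
Log2 fold change of mutant against wild type from edgeR for the T-box members and for the tested genes of each list, with 1 point per gene and the median as a red bar. The members spread from -1.05 to 1.87, the mesenchyme list is centred on -0.032, and the skeletal muscle list has the lowest median, -1.6.

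The nearest protein-coding genes on either side of the members gave 14 genes outside the set. Only genes found by name in the count table were considered, so a nearer gene under another name would be missed. Of the 14 genes 9 were tested in edgeR and 14 had a p-value in DESeq2, and 0 were called by either. In edgeR 0 had an unadjusted p under 0.05, against 5.69% of all genes tested, and the median log2 fold change was 0.0065. For *Tbx18* the nearest genes so found were *Mrap2*, 518754 bases below it, and *Nt5e*, 596351 bases above it. *Mrap2* had 2 to 5 counts, and *Nt5e* had 8 and 7 mutant counts against 20 and 14 wild-type counts, a log2 fold change of -0.73 (SE 0.52, edgeR adjusted p of 1) opposite in sign to that of *Tbx18*. *Wars2*, 1194 bases below *Tbx15*, had a log2 fold change of -0.19 (SE 0.15) and none of the replicate division of *Tbx15*, at 209 and 284 counts in the mutant and 339 and 416 in the wild-type libraries. *Med13l*, below *Tbx3*, had a log2 fold change of 0.18 (SE 0.10). Within *Tbx3*, the annotation has 1 overlapping transcript on the opposite strand that the count table does not list, and the use of strand in the counting was not given in the sources used here.

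The genes whose pattern was most like that of *Tbx18* were ranked by the root mean square difference in log2 CPM, each gene centred on its own mean over the 4 libraries. They were *Zscan5b*, a zinc finger gene, at 0.525, *Mpp4*, a scaffold gene, at 0.583, *Cdh8*, a cadherin, at 0.607, *Ifi204*, an interferon-inducible gene, at 0.62 and *Adh1*, an alcohol dehydrogenase, at 0.626. *Zscan5b* had 22 and 18 mutant counts against 16 and 4 wild-type counts, *Mpp4* between 1 and 10, and *Ifi204* between 3 and 21. *Cdh8* had 68 and 31 mutant counts against 26 and 12 wild-type counts, and *Adh1* had 335 and 72 against 117 and 34. With 4 libraries, and counts this low for the first of them, the ranking only describes these libraries.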

How the data were processed

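The 4 RNA-seq libraries of E13.5 mouse ovaries were grouped by the genotype and replicate number in the sample titles. The authors aligned the reads with STAR 2.6.1d, obtained counts for each gene with summarizeOverlaps and deposited these as raw counts, without normalization or pooling. The submitters' processing notes name mm9, and the annotation behind the counts was not given in the sources used here. Every count column was matched to a library, with 0 columns unused.

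Counts of 34682 genes were analyzed in R 4.3.3 with edgeR 4.0.16: TMM normalization, filterByExpr (minimum count 10, which kept 15442 genes) and a quasi-likelihood F-test on genotype alone, with Benjamini-Hochberg adjustment over all genes tested at 0.05. The standard error (SE) of a fold change was its size divided by the root of F. The alternatives were DESeq2 1.42.0 (the authors' tool), RLE normalization, no filter, at least 10 counts in every library, a replicate block and leaving out each library. The fits were tested on simulated data. A first simulation, with a spread of its own for each gene, gave more false calls than the limit set for it, and the test was then rerun with another draw and with spreads smoothed over expression, where it met the limit. With gene-wise spreads false calls exceeded the nominal rate in both draws, so the adjusted p-values may be too small. The log2 CPM used for likeness had a prior count of 2.

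Positions and exon lengths came from GENCODE M1 (NCBIM37), and lengths may differ from those behind the counts. The members and all lists (T-box co-factors, regulated genes, ureteric and mesonephric mesenchyme, limb and body wall, muscle, mesonephric epithelium, pre-granulosa, stroma, germ cell) were chosen with earlier results of these data known. Named genes were the members, their family and neighbours, the genes most like *Tbx18*, and of each list those that passed or otherwise the 3 with the smallest p. *Myog*, *Actc1*, *Myh3*, *Bmp4*, *Osr2* and list genes beyond this rule were named after their values were seen, as was the comparison of replicate order.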

Additional observations from a re-analysis of the deposited data

How the results depend on the processing

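The number of genes called, 9 (0.0583% of genes tested), was 105 with DESeq2 (0.714% of those it adjusted) and 385 with the replicate block (2.49% of genes tested). It was 28 with no filter on low counts and 19 with at least 10 counts in every library. With each library left out it ranged from 4 without wild-type replicate 2 to 130 without mutant replicate 1, and was 38 without mutant replicate 2. The lone library of a group was then assumed to vary like the other group. Of the ureteric and mesonephric mesenchyme genes, 0 in the edgeR test, 3 were called with DESeq2, 2 with no filter, 1 with at least 10 counts in every library and 8 with the replicate block, and 0 to 5 when 1 library was left out, the 5 without mutant replicate 1. Of the genes regulated by T-box factors, also 0, 1 was called with DESeq2, 2 with the replicate block, and 0 to 1 when 1 library was left out. The co-factors, the other T-box genes and the genomic neighbours gave 0 calls under every alternative run. The cause of these changes was not tested.

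The log2 fold change of *Tbx18*, 1.87, lay between 1.87 and 2.07 under 4 alternatives and was positive in all 8, but ranged from 1.00 to 4.45 with each library left out. It has no value with at least 10 counts in every library, a filter it does not pass. With the replicate block it was 2.07 (standard error 0.48). Same-numbered libraries deviated together across genes (correlation 0.481) and carry adjacent library numbers in their column names, but with 2 pairs and no litter or batch stated, whether the numbers pair the libraries was not settled. *Tbx2*, *Tbx3*, *Tbx6* and *Tbx20* kept their sign under every alternative that gave a value, whereas *Tbx1*, *Tbx4* and *Tbx15* changed sign when 1 library was left out. Members present numbered 5, or 4 with a floor of 10 counts and 5 to 6 with each library left out. Counts of 0 to 42 limit what can be said of *Tbx18*, *Tbx15*, *Tbx6*, *Tbx20* and *Tbx5*.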

Other observations

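The marker lists of ovarian cell types gave the following counts. Over all genes the shares were 0.0583% called by edgeR and 5.69% at its unadjusted p under 0.05. They were 0.714% called by DESeq2 and 2.49% with the replicate block. The lists were chosen with earlier results of these data known, so no enrichment is read from their counts. Of 11 pre-granulosa genes, edgeR tested 10 and called 0, with 5 at an unadjusted p under 0.05. DESeq2 gave a p-value to 11 and called 2, *Lgr5* (log2 fold change 0.61, standard error 0.10, in the edgeR fit) and *Bmp2* (-0.80, standard error 0.13). *Foxl2* followed (0.59, standard error 0.12), and with the replicate block 4 genes passed, *Foxl2*, *Lgr5* and *Cdkn1b* higher and *Bmp2* lower in the mutant. Of 12 gonadal stroma genes, all tested, edgeR called 0, with 7 at an unadjusted p under 0.05, and DESeq2 called 3, *Tcf21*, *Pdgfra* and *Lum*, all lower in the mutant, of which *Tcf21* and *Pdgfra* also stand in the mesenchyme list. With the replicate block 6 genes of the list passed, all lower. The median log2 fold change of the stroma list was -0.46, and its summed level was 2180 and 1460 CPM in the mutant and 2080 and 2180 CPM in the wild-type libraries. *Col3a1* alone gave 1010 and 668 CPM of this in the mutant and 937 and 1090 CPM in wild type. Of 10 germ cell genes, all tested, edgeR called 0, with 0 at an unadjusted p under 0.05, and DESeq2 called 0, as did the replicate block. Their smallest p belonged to *Ddx4*, *Pou5f1* and *Stra8*, with log2 fold changes of 0.16, -0.13 and -0.23. Of the limb and body wall genes and the muscle genes, edgeR tested 13 and 11, and DESeq2 gave a p-value to 19 and 15. Both tools called 0, with 0 and 1 at an unadjusted p under 0.05 in edgeR. In the limb list *Prrx2*, *Lmx1b* and *Meis2* had log2 fold changes of -0.50, 0.87 and 0.25. In the muscle list *Myh3*, *Ttn* and *Mylpf* had -3.88, -2.69 and -1.61. With the replicate block 0 limb genes and 6 muscle genes passed, *Acta1*, *Actc1*, *Myh3*, *Mylpf*, *Tnnc1* and *Ttn*, all lower in the mutant. Wild-type replicate 1 was the highest library for 13 of the 16 listed muscle genes, so this difference leans on 1 library. *Myh3* had 91.7 CPM in it and 5.26 CPM in mutant replicate 1. In replicate 2 the mutant and wild-type levels were 1.40 and 1.36 CPM for *Myh3*, and 0.997 and 2.78 CPM for *Actc1*.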
